A study of Mus musculus with 22 samples.

Results

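The genes described here are 10 components of the TGF-β pathway: the ligand genes *Tgfb1*, *Tgfb2*, *Tgfb3* and *Inhba*, the receptor genes *Tgfbr1*, *Tgfbr2* and *Tgfbr3*, the latent binder genes *Ltbp1* and *Ltbp2*, and the inhibitor gene *Smad7*. They were chosen by name and role, with earlier results of these data known, and each matched 1 of the 55401 gene identifiers in the count table. All 10 were abundant enough to be tested in every comparison. Across serial passage, *Tgfbr1* rose about 2-fold in both sets of fibroblasts, and *Smad7* moved in opposite directions in the 2 sets. With edgeR, the main test, no member passed for loss of S6K1 or of S6K1 and S6K2, although *Tgfbr1* was lower in every KO and DKO library than in every late WT library of the same set. Such a lack of overlap, in either direction, was found for 13.2% of the genes tested in KO and 16.4% in DKO.

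RNA-seq was used to measure expression in primary mouse embryonic fibroblasts (MEFs), cells grown from embryos that senesce when they are passaged serially. The *S6K1* set held 4 libraries of WT MEFs at passage 3 (early WT), 4 of WT MEFs at passage 8 (late WT) and 3 of *S6K1* KO MEFs at passage 8 (late KO), and the *S6K1/S6K2* set held 4 early WT, 4 late WT and 3 late DKO libraries at the same passages. WT and *S6K1* KO MEFs came from heterozygous matings and shared mothers, whereas DKO embryos came from parents lacking *S6K2* and their WT controls from WT mothers of earlier breeding stages, so genotype and litter cannot be told apart for the DKO. All 22 libraries are of untreated cells, no group holds early KO or DKO MEFs, and no label names the libraries that share a mother or says which late culture came from which early one.

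TGF-β ligands are secreted in a latent complex, in which the propeptide covers the ligand and is linked to a latent TGF-β binding protein that anchors it in the extracellular matrix. The released ligand binds the receptor encoded by *Tgfbr2*, which recruits and phosphorylates the kinase encoded by *Tgfbr1*, and the active complex phosphorylates SMAD2 and SMAD3. SMAD7, itself induced by the pathway, binds the active receptor and blocks it, and in fibroblasts the pathway is known for driving collagen production and myofibroblast traits. *Inhba* encodes the subunit of activin A, which acts through its own receptors on the same SMAD proteins.

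Libraries held 10742454 to 17314832 counts on genes. Levels are given in CPM, counts scaled to a common library size by TMM over the 22 libraries. *Rps6kb1*, which encodes S6K1, was at 55.6 to 94.5 CPM in the 16 WT libraries, 14.2 to 23.0 CPM in the KO and 20.4 to 28.3 CPM in the DKO libraries. *Rps6kb2*, which encodes S6K2, was at 8.71 to 21.0 CPM in WT and KO libraries and 0.484 to 1.36 CPM in DKO libraries. The 12 fibroblast markers were detected in every library, with summed levels of 25066 to 36796 CPM in early and 15868 to 23545 CPM in late MEFs. All 19 macrophage markers were also detected in every library, and their summed level differed between groups, with late WT above the other groups of its set and DKO overlapping early WT. It was 488 to 1082 CPM in early WT, 5247 to 10990 CPM in late WT and 3487 to 4742 CPM in KO libraries of the *S6K1* set, and 574 to 1912 CPM in early WT, 6949 to 12047 CPM in late WT and 834 to 3187 CPM in DKO libraries of the other set. Y-linked transcripts marked 2 of 4, 1 of 4 and 3 of 3 libraries as male in the early WT, late WT and KO groups, and 2 of 4, 3 of 4 and 1 of 3 in the early WT, late WT and DKO groups of the *S6K1/S6K2* set. In bulk RNA, fewer cells of a type and less RNA per cell cannot be told apart.

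Of the 10 members, 1 rose and 1 fell between early and late WT MEFs of the *S6K1* set at an adjusted *P* under 0.05 (edgeR, quasi-likelihood F test, Benjamini-Hochberg). Of the 14132 genes tested there, 6.96% rose and 5.97% fell. Over passage of the *S6K1/S6K2* set 2 of 10 members rose and 0 fell, against 8.28% and 4.89% of 14365 genes. DESeq2 called 4 members in each of these comparisons, and 18.8% and 19.8% of all genes. Between late KO and late WT MEFs 0 members were called by edgeR, where 0.00708% of all genes were called higher and 0.0354% lower, and 1 by DESeq2 (*Tgfb3*), which called 1.92% of all genes. An unadjusted edgeR *P* under 0.05 was found for 2 of 10 members and 10.6% of all genes. Between late DKO and late WT MEFs 0 members were called by edgeR, which called 0.821% of genes higher and 3.95% lower. DESeq2 also called 0 members, and 8.4% of all genes. An unadjusted edgeR *P* under 0.05 was found for 4 of 10 members and 18.4% of all genes. Without the DKO library SG62 or SG64, or the late WT library SG58 or SG59, the 686 genes called fell to between 97 and 456. The passage and genotype comparisons of a set share its late WT libraries, so they are not independent.

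**Figure D1:**
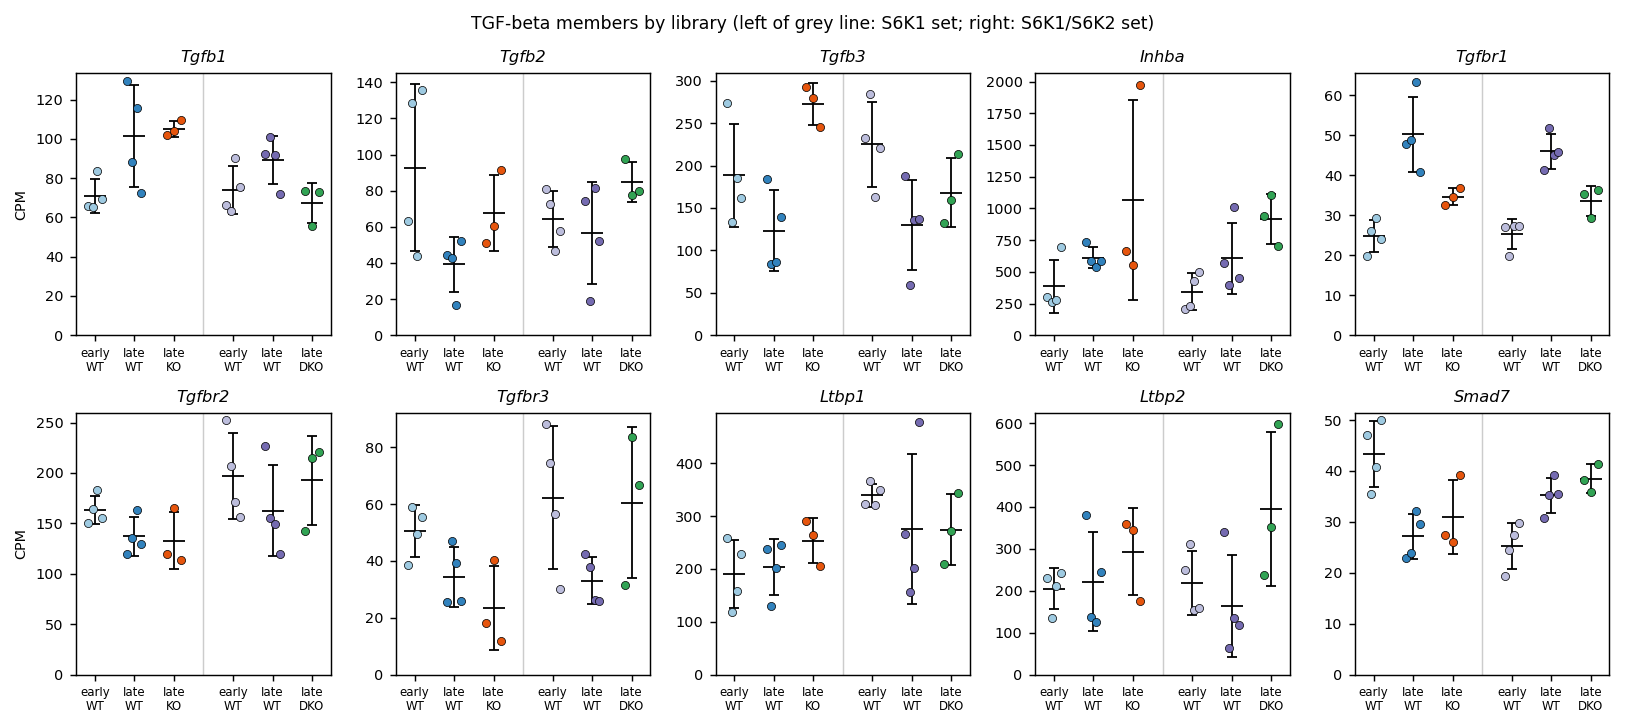
CPM of each member (vertical axes, from 0) in the 22 libraries, grouped by passage and genotype, with the S6K1 set left and the S6K1/S6K2 set right of the grey line. Points are libraries, and bars are group means ± SD. Late WT points of *Tgfbr1* lie above all early WT points of the same set, and late WT points of *Smad7* lie below early WT in the first set and above it in the second.

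No ligand gene was called by edgeR in any comparison, and calls by DESeq2 or other alternatives are given beside each gene. Per kilobase of exon in the GENCODE vM1 annotation, which may not be the annotation the reads were counted on, *Inhba* had the highest mean of the 10 members in all 6 groups (172 to 538 CPM per kb). *Tgfb3* or *Tgfb1* came next, and *Tgfb2* was the lowest ligand gene (8.09 to 19.2 CPM per kb).

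*Tgfb1* (ENSMUSG00000002603.15) encodes the ligand made by most cell types, including macrophages, and lies at chr7:25687002-25705077 in GRCm38.p6. It was at 65.6, 65.5, 83.8 and 69.5 CPM in early WT MEFs of the *S6K1* set, 129.7, 88.4, 116 and 72.3 CPM in late WT and 102, 104 and 109 CPM in late KO. In the *S6K1/S6K2* set it was at 66.3, 63.5, 90.2 and 75.7 CPM in early WT, 92.5, 101, 91.9 and 72.1 CPM in late WT and 73.6, 55.5 and 73.0 CPM in late DKO. The late WT libraries were mostly higher than early WT in both sets, but 1 late WT library of each lay within the early range. The log2 difference between late and early WT was 0.51 (SE 0.18, edgeR adjusted *P* = 0.0798) in the *S6K1* set and 0.30 (SE 0.15, adjusted *P* = 0.180) in the *S6K1/S6K2* set. KO libraries spanned the middle of the late WT range (log2 difference 0.05, SE 0.19, adjusted *P* = 0.951), and the DKO against late WT difference was −0.42 (SE 0.16, adjusted *P* = 0.174). The *S6K1* set value crossed the threshold with DESeq2, with a covariate for Y-linked genes and with all 6 groups in 1 fit (adjusted *P* = 0.0290 to 0.0371), and also without the early WT library SG04 (0.0496) or the late WT library SG23 (0.0255). The 2 late WT libraries of the *S6K1* set with the highest *Tgfb1*, SG19 and SG22, also had the highest macrophage marker sums of that group (10990 and 9232 CPM). SG21 and SG23, with *Tgfb1* at 88.4 and 72.3 CPM, had sums of 5247 and 6079 CPM. The KO libraries, with *Tgfb1* at 102 to 109 CPM, had sums of 3487 to 4742 CPM. The part of macrophages in the *Tgfb1* difference was not tested.

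*Tgfb2* (ENSMUSG00000039239.14, chr1:186622787-186709697) encodes the ligand that needs the co-receptor betaglycan for efficient binding. Its levels in the *S6K1* set were 63.4, 129, 43.8 and 136 CPM in early WT, 44.6, 42.9, 17.0 and 52.1 CPM in late WT and 51.0, 60.2 and 91.4 CPM in late KO. The early WT group thus split into a high and a low pair, and the low pair overlapped late WT. The low pair, SG02 and SG04, had summed Y-linked levels of 206 and 240 CPM, and the high pair, SG03 and SG05, 0.150 and 0.879 CPM. In late WT, SG22, at 17.0 CPM, was the only library marked as male. The part of sex in this split was not tested. The passage difference was −1.25 (SE 0.40, edgeR adjusted *P* = 0.0578), close to the threshold, and it passed with DESeq2, with library totals in place of TMM, with the Y-linked covariate and with all 6 groups in 1 fit (adjusted *P* = 0.000153 to 0.0436), and without the early WT library SG04 (0.0272). *Tgfb2* of the *S6K1/S6K2* set was at 46.5 to 81.0 CPM in early WT, 18.7 to 81.8 CPM in late WT and 77.5 to 97.5 CPM in late DKO, with passage and genotype differences of −0.16 (SE 0.36) and 0.57 (SE 0.38) that did not pass. Early WT libraries SG47 and SG48 of that set, marked as male, were at 72.8 and 46.5 CPM, and SG46 and SG50 at 81.0 and 57.4 CPM. The KO against late WT difference was 0.79 (SE 0.42, adjusted *P* = 0.548). With the Y-linked covariate it was 1.94 with an adjusted *P* of 0.0129, in a comparison where all 3 KO and 1 of 4 late WT libraries were male.

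*Tgfb3* (ENSMUSG00000021253.7, chr12:86056743-86079041) encodes a ligand abundant in mesenchymal cells. It was at 273, 133, 185 and 162 CPM in early WT, 184, 84.0, 85.9 and 139.9 CPM in late WT and 293, 279 and 245 CPM in late KO, all of the *S6K1* set. Each KO library was above each late WT library, which was the case, in either direction, for 13.2% of the genes tested. The log2 difference was 1.14 (SE 0.29, 95% interval 0.51 to 1.78), with an unadjusted *P* of 0.00198 and an edgeR adjusted *P* of 0.210. It passed with DESeq2 (adjusted *P* = 0.0225). The *S6K1/S6K2* set had *Tgfb3* at 233, 285, 163 and 220.4 CPM in early WT, 187, 59.6, 136 and 137 CPM in late WT and 132, 159 and 213 CPM in late DKO. There the DKO and late WT groups overlapped, with a difference of 0.36 (SE 0.32, adjusted *P* = 0.617). The genotype effects of the 2 sets differed by −0.77 (95% interval −1.73 to 0.18, adjusted *P* = 0.564), so they were not shown to differ. Late WT was below early WT by −0.62 (SE 0.27, adjusted *P* = 0.165) and −0.76 (SE 0.30, adjusted *P* = 0.111) in the *S6K1* and *S6K1/S6K2* sets. The second value passed with DESeq2 (adjusted *P* = 0.0467) and without the late WT library SG57 (0.0483).

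*Inhba* (ENSMUSG00000041324.14, chr13:16004256-16031609) was higher on average in late than in early WT of both sets, without passing the test. Early WT libraries were at 301, 263, 275 and 699 CPM and late WT at 735, 588, 541 and 582 CPM in the *S6K1* set. Only the early library SG05 reached the late range. The passage difference was 0.66 (SE 0.41, adjusted *P* = 0.323) in that set and 0.86 (SE 0.35, adjusted *P* = 0.117) in the *S6K1/S6K2* set, where early WT spanned 205 to 499 CPM and late WT 397 to 1015 CPM. In KO MEFs *Inhba* was at 667, 552 and 1976 CPM. The log2 difference from late WT was 0.80 (SE 0.44, adjusted *P* = 0.565) and −0.0043 without the KO library SG27, so its size rested on that library. DKO libraries were at 939.8, 1102 and 706 CPM, a difference of 0.58 (SE 0.37, adjusted *P* = 0.454).

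Compared per kilobase of exon, *Tgfb1* made up 27.4% ± 5.14 (SD, n = 4) of the summed level of *Tgfb1*, *Tgfb2* and *Tgfb3* in early WT and 47.8% ± 10.9 (n = 4) in late WT MEFs of the *S6K1* set, and 30.3% ± 1.43 (n = 3) in late KO. The *Tgfb1* share was 27.2% ± 7.80 (n = 4) in early WT, 43.2% ± 14.5 (n = 4) in late WT and 28.2% ± 3.89 (n = 3) in DKO libraries of the *S6K1/S6K2* set. The 3 shares are parts of 1 sum, so they are not independent. The share of *Tgfb3* went from 53.4% to 42.4% and to 59.4% in the *S6K1* set and from 60.6% to 43.7% and to 52.7% in the *S6K1/S6K2* set. Between KO and late WT the log2 difference of *Tgfb1* itself was 0.05 (SE 0.19, edgeR adjusted *P* = 0.951) and that of *Tgfb3* 1.14 (SE 0.29, edgeR adjusted *P* = 0.210). In the *S6K1* set the *Tgfb1* share did not overlap between late WT (35.2 to 61.0%) and either early WT (21.5 to 33.9%) or KO (29.1 to 31.9%). Late WT of the *S6K1/S6K2* set (33.8 to 64.7%) overlapped early WT (20.03 to 37.9%) but not DKO (25.6 to 32.7%). These shares are a description, with no test.

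**Figure D2:**
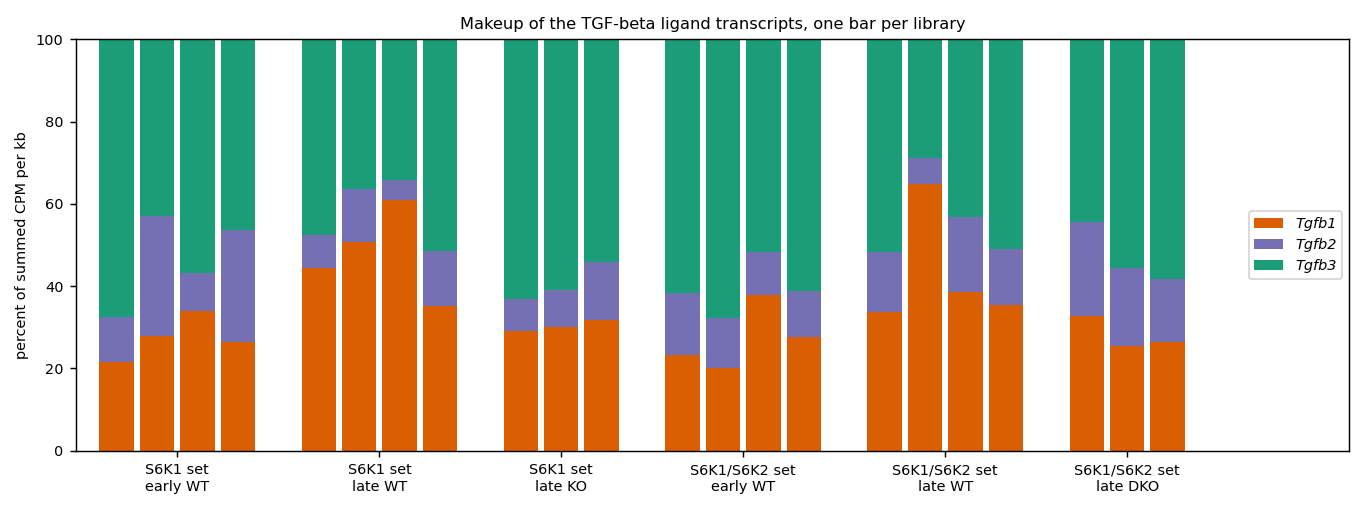
Share of *Tgfb1*, *Tgfb2* and *Tgfb3* in their summed CPM per kilobase of exon (vertical axis, percent), with 1 bar per library in the 6 groups. The *Tgfb1* part averages 47.8% and 43.2% in the late WT groups and 27.2 to 30.3% in the other groups.

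*Tgfb1* and *Tgfb2* had late WT means above and below early WT, respectively, in both sets. Neither gene was called with passage in the main edgeR test of either set. Leaving out 1 library gave −0.400 to 0.117 for *Tgfb2* in the *S6K1/S6K2* set. Their upstream sequences in RefSeq (GRCm38.p6) are unlike, and the 250 bases before an annotated start are shown for each gene. Capitals mark the GC box GGGCGG, the TATA box TATAAA and the SMAD element CAGAC, each on either strand, and none of these matches overlap. The *Tgfb1* sequence is at chr7:25686752-25687001 on the plus strand, and the *Tgfb2* sequence at chr1:186705990-186706239 on the minus strand, inside the annotated span of the gene.
*Tgfb1*: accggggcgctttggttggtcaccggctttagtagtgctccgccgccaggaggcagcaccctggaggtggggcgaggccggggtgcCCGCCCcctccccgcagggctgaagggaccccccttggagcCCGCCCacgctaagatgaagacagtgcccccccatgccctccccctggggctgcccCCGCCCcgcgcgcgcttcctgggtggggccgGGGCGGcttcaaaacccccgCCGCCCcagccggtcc
*Tgfb2*: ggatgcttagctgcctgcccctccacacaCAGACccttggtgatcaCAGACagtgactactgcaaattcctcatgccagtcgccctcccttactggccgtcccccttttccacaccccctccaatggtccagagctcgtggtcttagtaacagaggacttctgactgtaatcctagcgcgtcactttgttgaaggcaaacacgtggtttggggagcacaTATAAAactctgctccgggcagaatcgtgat

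The *Tgfb1* sequence was 75.2% G or C and held 5 GC boxes and no TATA box. The *Tgfb2* sequence was 53.6% G or C, with 0 GC boxes, 1 TATA box close to the start and 2 SMAD elements. Among 32851 mouse promoter sequences of this length, 32.7% held a GC box, 12.4% a TATA box and 42.2% a SMAD element. The median was 52.4% G or C. A match of this kind describes the sequence and is not evidence of binding.

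Among the receptor genes, edgeR called only *Tgfbr1*. *Tgfbr1* (ENSMUSG00000007613.15, chr4:47353222-47414926), the type I receptor kinase that phosphorylates SMAD2 and SMAD3, was at 19.7, 26.0, 29.4 and 24.1 CPM in early WT, 47.9, 48.9, 63.4 and 40.8 CPM in late WT and 32.7, 34.5 and 36.9 CPM in late KO, all of the *S6K1* set. Every late WT library was above every early WT library, and the KO libraries lay between them without touching either group. In the *S6K1/S6K2* set it was at 27.1, 19.8, 27.2 and 27.3 CPM in early WT, 41.3, 51.9, 45.2 and 45.9 CPM in late WT and 35.4, 29.3 and 36.3 CPM in late DKO. The order was the same, with DKO libraries above all early WT and below all late WT libraries. The groups did not overlap, in either direction, for 18.3% of genes with passage in the *S6K1* set and 20.3% in the *S6K1/S6K2* set. For KO and DKO against late WT this held for 13.2% and 16.4% of genes.

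*Tgfbr1* rose with passage by 1.02 on the log2 scale (SE 0.17, 95% interval 0.66 to 1.38, edgeR adjusted *P* = 0.00189) in the *S6K1* set and by 0.89 (SE 0.13, 95% interval 0.61 to 1.18, adjusted *P* = 0.00155) in the *S6K1/S6K2* set, or 2.02-fold and 1.86-fold. The passage effects of the 2 sets differed by −0.16 (95% interval −0.59 to 0.28, adjusted *P* = 0.841). Both calls held under all 7 alternatives and without each of the 11 libraries of the set in turn, with log2 differences of 0.92 to 1.14 and 0.78 to 0.93 without 1 library. The late KO against late WT difference was −0.54 (SE 0.18, unadjusted *P* = 0.0109, adjusted *P* = 0.319), and the late DKO against late WT difference −0.47 (SE 0.14, unadjusted *P* = 0.00636, adjusted *P* = 0.0892). Neither passed under any alternative, and the genotype effects of the 2 sets differed by 0.08 (95% interval −0.38 to 0.55, adjusted *P* = 0.928).

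The summed macrophage markers, like *Tgfbr1*, were highest in the late WT libraries of each set. The sums were 488 to 1912 CPM in early WT, 5247 to 12047 CPM in late WT, 3487 to 4742 CPM in KO and 834 to 3187 CPM in DKO libraries. KO sums lay between early and late WT, as *Tgfbr1* did, whereas DKO sums overlapped early WT and *Tgfbr1* did not. None of the 19 markers was at 0 in any library. Of these markers 19 rose with passage in the *S6K1* set (6.96% of all genes) and 18 in the *S6K1/S6K2* set (8.28%), and 18 fell in DKO MEFs (3.95%). In KO MEFs 0 were called by edgeR, with 13 at an unadjusted *P* under 0.05 (10.6% of all genes). The part of these cells in the *Tgfbr1* differences was not tested. The DKO libraries SG61, SG62 and SG64 had marker sums of 3187, 959 and 834 CPM and *Tgfbr1* levels of 35.4, 29.3 and 36.3 CPM. Early WT libraries of their set had sums of 574 to 1912 CPM and *Tgfbr1* levels of 19.8 to 27.3 CPM. Early WT libraries of the *S6K1* set reached a *Tgfbr1* level of 29.4 CPM.

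**Figure D3:**
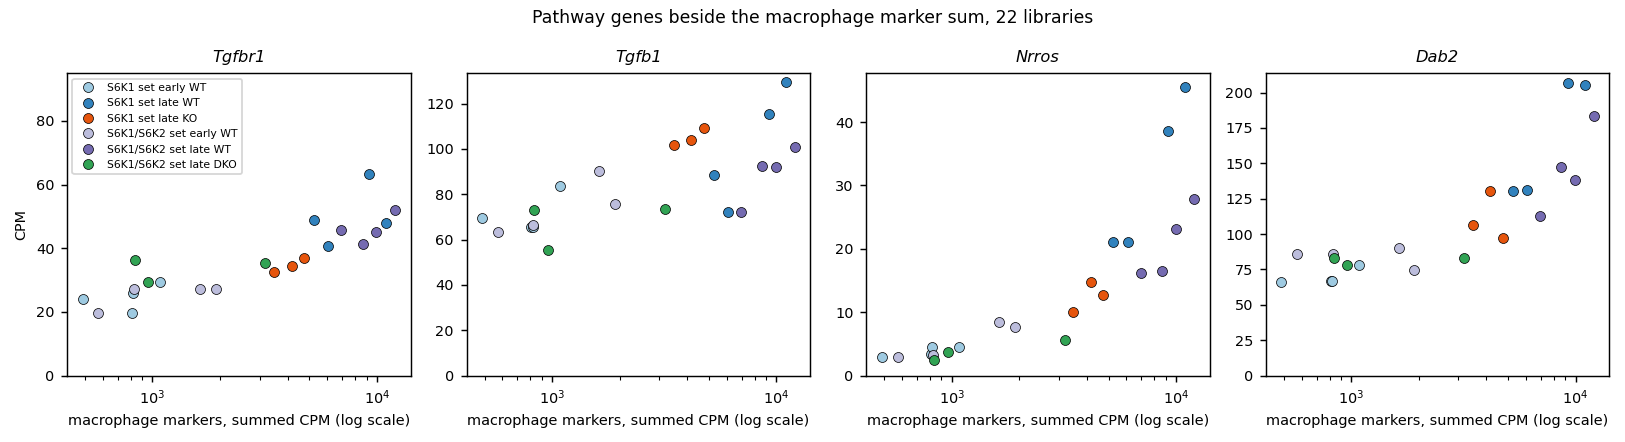
CPM of *Tgfbr1*, *Tgfb1*, *Nrros* and *Dab2* (vertical axes, from 0) against the summed CPM of 19 macrophage markers (horizontal axes, log scale) in the 22 libraries, coloured by group. Late WT libraries, with marker sums of 5247 to 12047 CPM, include the highest level of *Tgfbr1*, *Nrros* and *Dab2*, and KO libraries lie between early and late WT for *Tgfbr1* and *Nrros*.

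*Tgfbr2* (ENSMUSG00000032440.13, chr9:116087695-116175363), the type II receptor that binds the ligand, did not follow *Tgfbr1*. It was at 150.5 to 183 CPM in early WT, 119 to 164 CPM in late WT and 114 to 165 CPM in KO libraries of the *S6K1* set. The corresponding *S6K1/S6K2* set ranges were 156 to 253, 120.0 to 226 and 142 to 220.4 CPM. All groups overlapped. The passage differences were −0.26 (95% interval −0.60 to 0.08, adjusted *P* = 0.311) and −0.25 (95% interval −0.72 to 0.23, adjusted *P* = 0.475), intervals that do not reach the rise of *Tgfbr1*. Per kilobase of exon, the ratio of *Tgfbr1* to *Tgfbr2* was 0.187 ± 0.0169 (SD, n = 4), 0.453 ± 0.0468 (n = 4) and 0.333 ± 0.0716 (n = 3) in early WT, late WT and KO libraries of the *S6K1* set. It was 0.166 ± 0.0477 (n = 4), 0.372 ± 0.105 (n = 4) and 0.227 ± 0.0731 (n = 3) in early WT, late WT and DKO libraries of the *S6K1/S6K2* set. *Tgfbr1* transcripts were thus fewer than *Tgfbr2* transcripts per kilobase in every group, and the gap was smallest in late WT. These ratios have no test.

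The upstream sequences of both receptor genes are shown because they are partners in 1 complex and only *Tgfbr1* moved with passage. Capitals mark the same GC box, TATA box and SMAD element, and the sequences lie at chr4:47352972-47353221 on the plus strand and chr9:116175364-116175613 on the minus strand (GRCm38.p6), directly before the annotated genes.
*Tgfbr1*: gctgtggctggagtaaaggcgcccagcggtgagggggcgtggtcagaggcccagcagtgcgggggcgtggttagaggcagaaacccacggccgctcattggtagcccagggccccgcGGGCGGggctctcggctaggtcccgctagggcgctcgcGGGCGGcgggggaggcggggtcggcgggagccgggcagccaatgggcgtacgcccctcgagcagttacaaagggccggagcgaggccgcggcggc
*Tgfbr2*: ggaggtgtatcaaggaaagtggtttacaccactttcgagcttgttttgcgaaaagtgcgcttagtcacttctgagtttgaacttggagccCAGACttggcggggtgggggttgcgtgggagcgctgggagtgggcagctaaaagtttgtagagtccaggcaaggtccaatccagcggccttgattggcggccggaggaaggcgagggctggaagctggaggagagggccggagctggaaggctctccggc

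The *Tgfbr1* sequence was 74.8% G or C and held 2 GC boxes, 0 TATA boxes and 0 SMAD elements. A second annotated start of *Tgfbr1*, with its 250 bases at chr4:47385966-47386215, was preceded by a sequence of 52.8% G or C with 0 GC boxes and 1 SMAD element, so the contrast with *Tgfbr2* holds for the first start only. The *Tgfbr2* sequence was 58.4% G or C and held 0 GC boxes, 0 TATA boxes and 1 SMAD element. Also searched on both strands were the AP-1 element TGANTCA, found in 6.75% of the 32851 sequences, and the cyclic AMP response element TGACGTCA, found in 1.55%. Neither was in the 4 sequences printed here. Promoter sequences were searched for 7 of the 10 members, and none was searched for *Tgfb3*, *Tgfbr3* or *Smad7*.

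*Tgfbr3* (ENSMUSG00000029287.14, chr5:107106567-107289629) encodes betaglycan, a co-receptor without kinase activity. It was lower in late than in early WT by −0.56 (SE 0.33, adjusted *P* = 0.302) in the *S6K1* set and −0.89 (SE 0.36, adjusted *P* = 0.118) in the *S6K1/S6K2* set. Early WT libraries spanned 38.4 to 59.0 and 30.0 to 88.2 CPM and late WT 25.4 to 47.1 and 25.8 to 42.2 CPM, so the groups overlapped. The second difference passed with DESeq2 (adjusted *P* = 0.0483) and without the early WT library SG50 (0.0339), the one at 30.0 CPM. KO libraries were at 18.3, 40.2 and 11.7 CPM, below late WT on average (−0.56, SE 0.36, adjusted *P* = 0.636), and DKO libraries at 31.5, 83.5 and 66.6 CPM, above late WT on average (0.86, SE 0.38, adjusted *P* = 0.254). The genotype effects of the 2 sets differed by 1.42 (95% interval 0.27 to 2.58, edgeR adjusted *P* = 0.374 over 14886 genes). Only 0.00672% of genes passed for that difference, and 0 of the 10 members. An unadjusted edgeR *P* under 0.05 was found for 1 member and 10.9% of all genes. DESeq2 called 0 members and 0.437% of all genes.

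**Figure D4:**
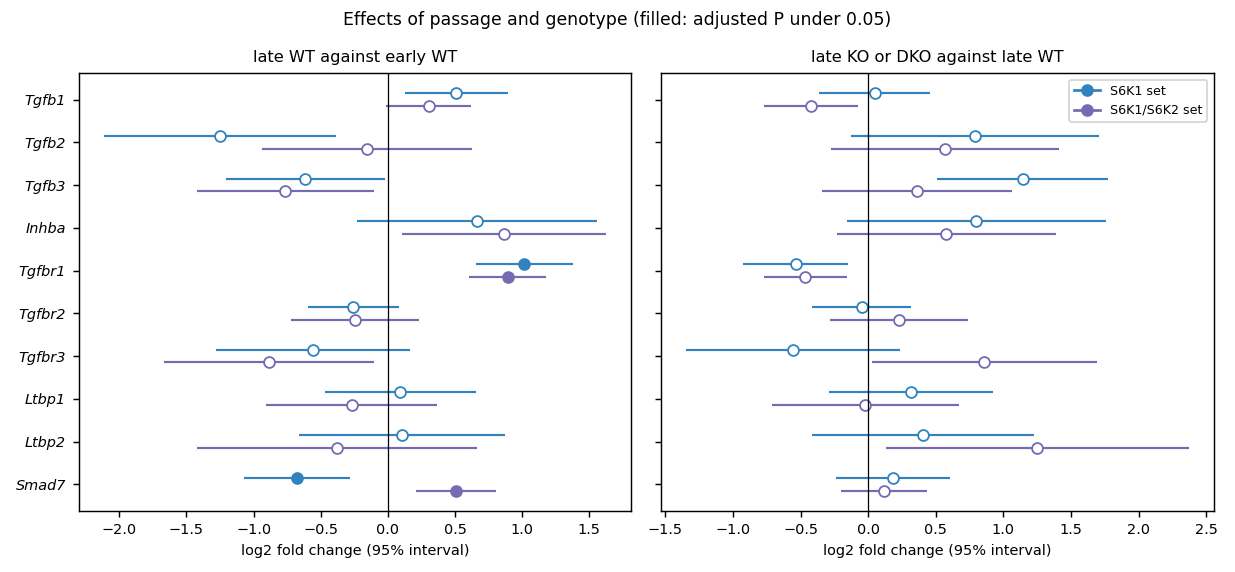
Log2 fold change of each member with its 95% interval (horizontal axes) for late WT against early WT (left) and late KO or DKO against late WT (right), in the S6K1 set (blue) and the S6K1/S6K2 set (purple). Filled points have an edgeR adjusted *P* under 0.05, which holds for *Tgfbr1* and *Smad7* on the left in both sets and for no member on the right.

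The latent binder genes were not called by edgeR or DESeq2 in any comparison with all libraries. *Ltbp1* (ENSMUSG00000001870.16, chr17:75005480-75392512), whose product is disulfide-linked to the latent ligand, spanned 119 to 289.7 CPM in the *S6K1* set and 156 to 478 CPM in the *S6K1/S6K2* set. Its differences were 0.09 (SE 0.26) and −0.27 (SE 0.29) with passage, 0.31 (SE 0.28) in KO and −0.02 (SE 0.32) in DKO. The 4 early WT libraries of the *S6K1/S6K2* set lay close together at 320.2 to 366 CPM, whereas its 4 late WT libraries ran from 156 to 478 CPM. Without the highest of these, SG60, the passage difference was −0.69 with an adjusted *P* of 0.0407.

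*Ltbp2* (ENSMUSG00000002020.15, chr12:84783212-84876558) encodes a family member that binds fibrillin but not latent TGF-β. Its exons overlap those of D030025P21Rik on the other strand, and the strand setting of the counting is not given in the sources used here, so its counts may hold reads of both. It was at 341, 62.9, 136 and 118 CPM in late WT and 238, 351 and 598 CPM in late DKO MEFs. The late WT library SG57, at 341 CPM, was above the lowest DKO library, and the other 3 were below all DKO libraries. The difference was 1.25 (SE 0.51, 95% interval 0.13 to 2.37, unadjusted *P* = 0.0314, edgeR adjusted *P* = 0.214), and 1.90 with an adjusted *P* of 0.0229 without SG57. In KO MEFs it was 0.41 (SE 0.38, adjusted *P* = 0.749), and the passage differences were 0.10 (SE 0.35) and −0.38 (SE 0.47).

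*Smad7* (ENSMUSG00000025880.11), the feedback inhibitor, was called with passage in both sets, with opposite signs. In the *S6K1* set it was at 47.1, 35.5, 40.7 and 50.0 CPM in early WT, 22.9, 24.0, 32.1 and 29.5 CPM in late WT and 27.4, 26.1 and 39.3 CPM in late KO. All late WT libraries were below all early WT libraries. In the *S6K1/S6K2* set it was at 19.3, 24.4, 27.5 and 29.8 CPM in early WT, 30.7, 35.2, 39.3 and 35.5 CPM in late WT and 38.3, 35.8 and 41.4 CPM in late DKO. All late WT libraries were above all early WT libraries, with 29.8 and 30.7 CPM as the nearest pair. Early and late WT did not overlap, in either direction, for 18.3% of genes in the *S6K1* set and 20.3% in the *S6K1/S6K2* set. *Smad7* fell by 0.68 on the log2 scale (SE 0.18, edgeR adjusted *P* = 0.0291) in the *S6K1* set and rose by 0.51 (SE 0.14, adjusted *P* = 0.0308) in the *S6K1/S6K2* set.

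Each of these calls alone was close to the threshold. The fall was lost without the early WT library SG02, SG04 or SG05, the late WT library SG19 or SG21, or the KO library SG24 (adjusted *P* = 0.0504 to 0.0836), and the rise was lost without the early WT library SG46 or SG47 or the late WT library SG58, SG59 or SG60 (0.0533 to 0.0980). The rise also missed the threshold with library totals in place of TMM, with no filter on low counts and with all 6 groups in 1 fit (0.0509 to 0.0524). The signs did not change. The passage effects of the 2 sets differed by 1.15 (SE 0.23, 95% interval 0.68 to 1.63, adjusted *P* = 0.0131), a difference that 0.712% of 14886 genes passed. It passed under all 5 alternatives run for it and without each of the 22 libraries in turn (adjusted *P* = 0.00802 to 0.0377 without 1 library). *Smad7* was the only member of 10 to pass for this difference. The genotype differences of *Smad7* were 0.18 (95% interval −0.24 to 0.61, adjusted *P* = 0.783) in KO and 0.12 (95% interval −0.20 to 0.44, adjusted *P* = 0.742) in DKO. Neither passed, and the intervals leave the size of the effects uncertain. The early WT groups, both WT MEFs at passage 3, were at 35.5 to 50.0 CPM in the *S6K1* set and 19.3 to 29.8 CPM in the *S6K1/S6K2* set, and the late WT groups at 22.9 to 32.1 and 30.7 to 39.3 CPM. The labels give no culture or library dates, so the set and anything that differed between the preparations of its cultures cannot be told apart.

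Of the other genes of the pathway lists described below, 4 also differed between the sets in their passage effect. These were 2 of 25 genes tested in the BMP list and 2 of 21 TGF-β targets, against 0.712% of 14886 genes. Of the latency, SMAD and activin lists, 0 of 17, 0 of 19 and 0 of 9 genes tested passed for this difference. *Junb*, an early response gene and TGF-β target, fell with passage in the *S6K1* set (172 to 208 CPM in early WT, 44.9 to 83.1 CPM in late WT) and rose in the *S6K1/S6K2* set (62.8 to 75.0 and 187 to 229 CPM), with a difference of 3.18 (SE 0.23, adjusted *P* = 2.28e-08). *Id1* and *Id2*, inhibitors of differentiation that are targets of BMP signalling, rose with passage in the *S6K1/S6K2* set by 1.59 (adjusted *P* = 0.000414) and 2.07 (adjusted *P* = 0.000124) and differed between the sets by 1.51 (adjusted *P* = 0.00429) and 1.65 (adjusted *P* = 0.00286). *Bhlhe40*, a transcriptional repressor, fell in the *S6K1* set by 1.40 (adjusted *P* = 0.00130) and differed between the sets by 1.54 (adjusted *P* = 0.0219). The other list genes named below did not pass for this difference, so a passage call in only 1 set was not shown to be particular to it.

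**Figure D5:**
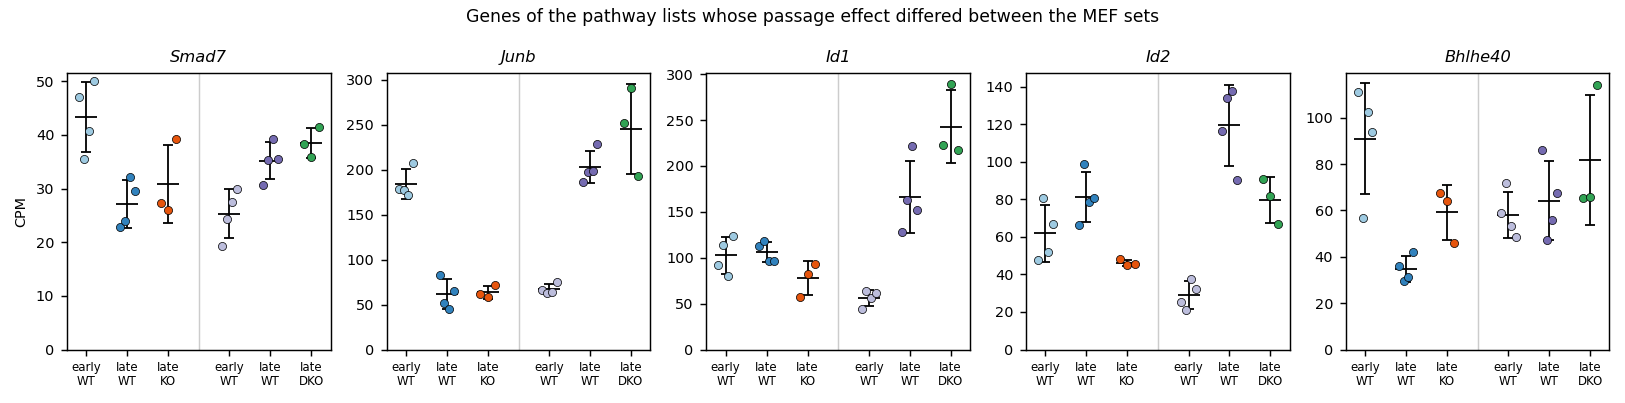
CPM of *Smad7*, *Junb*, *Id1*, *Id2* and *Bhlhe40* (vertical axes, from 0) in the 22 libraries by group, with the S6K1 set left and the S6K1/S6K2 set right of the grey line. Points are libraries and bars are group means ± SD. The group means of *Smad7* and *Junb* are highest in early WT in the first set and lowest in early WT in the second.

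The genes that hold or release the latent ligand were described as a list of 18, of which 17 were tested. With passage 1 rose (6.96% of all genes) and 3 fell (5.97%) in the *S6K1* set, with a median log2 difference of −0.30, against −0.04 over all genes. In the *S6K1/S6K2* set 1 rose (8.28% of all genes) and 6 fell (4.89%), with a median of −0.37, against 0.01. *Fbn1* and *Fbn2*, the fibrillins to which latent complexes attach, fell in both sets, *Fbn1* by 0.99 (adjusted *P* = 0.00871) and 1.37 (adjusted *P* = 0.0110) and *Fbn2* by 1.76 (adjusted *P* = 0.0377) and 2.02 (adjusted *P* = 0.00529). *Itgb8*, a subunit of an activating integrin, fell in the *S6K1* set from 10.4 to 1.53 CPM (adjusted *P* = 0.00135). *Lrrc32*, which tethers latent TGF-β at the cell surface, fell in the *S6K1/S6K2* set from 154 to 55.2 CPM (adjusted *P* = 0.00271). *Itgb8* of the *S6K1/S6K2* set was at 3.11 to 13.0 CPM in early and 0.898 to 6.94 CPM in late WT. *Lrrc32* of the *S6K1* set was at 68.2 to 164 and 62.1 to 87.2 CPM. *Nrros*, a tether of latent TGF-β on macrophages and microglia, went the other way, from 2.90 to 4.54 CPM in early WT to 21.1 to 45.6 CPM in late WT in the *S6K1* set (log2 difference 3.03, adjusted *P* = 5.68e-05) and from 2.94 to 8.50 to 16.2 to 27.9 CPM in the *S6K1/S6K2* set (1.94, adjusted *P* = 0.00583). It was at 9.96 to 14.8 CPM in KO and fell to 2.53 to 5.65 CPM in DKO MEFs (−2.42, adjusted *P* = 0.00998). *Nrros* thus followed the macrophage marker sums given above, and their part in it was not tested. In DKO MEFs *Mmp14*, a membrane protease, was the 1 gene of the list that rose (0.50, adjusted *P* = 0.0281) and *Nrros* the 1 that fell. Over all genes 0.821% were called higher and 3.95% lower in DKO MEFs. In KO MEFs 0 of 17 were called, with 4 at an unadjusted *P* under 0.05 (10.6% of all genes).

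Of 19 genes for SMAD proteins and their regulators, all tested, 1 rose (6.96% of all genes) and 2 fell (5.97%) with passage in the *S6K1* set (median −0.16). In the *S6K1/S6K2* set 2 rose (8.28% of all genes) and 0 fell (4.89%), with a median of −0.13. *Dab2*, an adaptor that links the receptors to SMAD proteins and is also abundant in macrophages, rose in both, from 65.9 to 77.9 CPM to 130.3 to 207 CPM (2.42-fold, adjusted *P* = 0.000876) and from 74.8 to 90.1 CPM to 113 to 183 CPM (1.76-fold, adjusted *P* = 0.00288). It was at 97.0 to 131 CPM in KO and fell to 78.1 to 83.0 CPM in DKO MEFs (−0.85, adjusted *P* = 0.00916). *Bambi*, a pseudoreceptor that inhibits signalling, fell in the *S6K1* set by 0.79 (adjusted *P* = 0.0330), as did *Zfyve9*, which presents SMAD2 to the receptor, by 0.68 (adjusted *P* = 0.00502). *Bambi* of the *S6K1/S6K2* set was at 18.9 to 28.4 CPM in early and 9.97 to 22.1 CPM in late WT. *Tgif1*, a SMAD corepressor, rose in the *S6K1/S6K2* set by 0.42 (adjusted *P* = 0.0464). Of the 19, 0 were called in KO MEFs, with 4 at an unadjusted *P* under 0.05 (10.6% of all genes). *Dab2* was the only call in DKO MEFs, where 0.821% of all genes were called higher and 3.95% lower.

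In the activin list, with 9 of 12 genes tested, *Fst*, which encodes the activin antagonist follistatin, rose with passage in the *S6K1* set from 28.9 to 49.5 CPM to 91.2 to 189 CPM (3.48-fold, adjusted *P* = 0.00149). *Inha*, the inhibin α subunit, fell there by 0.79 (adjusted *P* = 0.0498), and in the *S6K1/S6K2* set the type I receptor gene *Acvr1b* fell by 0.73 (adjusted *P* = 0.0455). *Fstl1*, a secreted follistatin-related glycoprotein, was the only gene of the list called in DKO MEFs, where it rose by 0.70 (adjusted *P* = 0.0233). DKO calls over all genes were 0.821% higher and 3.95% lower. None was called in KO MEFs, where 1 had an unadjusted *P* under 0.05 (10.6% of all genes).

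In the BMP list, with 24 of 26 genes tested, 1 rose (6.96% of all genes) and 1 fell (5.97%) with passage in the *S6K1* set. In the *S6K1/S6K2* set 5 rose (8.28% of all genes) and 1 fell (4.89%). *Smad9* rose (1.40, adjusted *P* = 0.0243) in the *S6K1* set, *Bmp6* rose (1.79, adjusted *P* = 0.0240) in the *S6K1/S6K2* set beside *Id1* and *Id2*, and *Chrd*, the BMP antagonist chordin, fell in both (−1.48, adjusted *P* = 0.0288, and −1.83, adjusted *P* = 0.0222). No gene of this list was called in KO or DKO MEFs, and 7 had an unadjusted *P* under 0.05 in each, against 10.6% of all genes in KO and 18.4% in DKO MEFs.

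Of 21 TGF-β target genes, all tested, 0 rose (6.96% of all genes) and 4 fell (5.97%) with passage in the *S6K1* set (median −0.18). In the *S6K1/S6K2* set 1 rose (8.28% of all genes) and 4 fell (4.89%), with a median of −0.10. Besides *Junb* and *Bhlhe40*, the named falls were in matrix genes. *Col1a2* fell by 1.01 in the *S6K1* set (adjusted *P* = 0.0295), and in the *S6K1/S6K2* set *Col1a1* fell by 1.40 (adjusted *P* = 0.00183), the elastin gene *Eln* by 2.53 (adjusted *P* = 0.0196) and *Tgfbi* by 1.14 (adjusted *P* = 0.0329). *Col1a2* of the *S6K1/S6K2* set was at 6795 to 9773 CPM in early and 4316 to 4763 CPM in late WT. *Col1a1* of the *S6K1* set was at 7005 to 10471 and 3167 to 6540 CPM. *Eln* was the only target called in DKO MEFs (2.61, adjusted *P* = 0.0393), where its libraries ran from 20.1 to 115 CPM against 3.46 to 23.9 CPM in late WT. DKO calls over all genes were 0.821% higher and 3.95% lower. In KO MEFs 0 of 21 were called, with 8 at an unadjusted *P* under 0.05 (10.6% of all genes). *Tgfbr1* rose in both sets, while no collagen gene of the list rose in either.

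The genes whose group means were nearest to those of each member were found among 13898 genes, as the root mean square difference of the 6 centred group means of log2 CPM. For *Tgfbr1* these were *Rnf130* (0.0612) and D1Ertd622e (0.0813), where the spread of *Tgfbr1* itself was 0.385. For *Smad7* they were *Lrrcc1* (0.0736) and *Ift74* (0.0827), with a spread of 0.277. *Tgfb1* was nearest to *Ppp1r14b* and *Nubp2*, *Tgfb2* to *Dact1* and ENSMUSG00000096847.2, *Tgfb3* to *Cdh17* and 4921536K21Rik, and *Inhba* to 6530418L21Rik and *Cst3*. *Tgfbr2* was nearest to *Carf* and *Pogz*, *Tgfbr3* to *Inha* and *Cacna1g*, *Ltbp1* to *Ssh3* and *Iars2*, and *Ltbp2* to *Plin4* and *Lrp4*. With 6 points and many genes, near matches are easily found, and no member was among the nearest genes of another.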

How the data were processed

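The 22 RNA-seq libraries of MEFs at passage 3 or 8 fall into 6 groups by their labels. The authors' methods name stranded mRNA libraries, single-end reads, CASAVA, TopHat, mm9 and HTSeq, whereas the submitters' processing notes name STAR 2.7.1a, mm10 and DESeq2 1.28.1. The deposited values are raw counts per gene without normalization, and 22812 of the 55401 identifiers are not in the mm9 annotation GENCODE vM1. The annotation release and strand setting of the counting are not given in the sources used here. Coordinates and promoter sequences were taken from RefSeq GRCm38.p6 and exon lengths from GENCODE vM1.

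In R 4.3.3, edgeR 4.0.16 (filterByExpr, TMM, robust quasi-likelihood F test) was fitted to the 3 groups of each set, and to all 22 libraries for differences between sets, with Benjamini-Hochberg adjustment over all genes tested and a threshold of 0.05. SE values are the log2 fold change divided by the square root of F, and intervals use the t distribution. Alternatives were DESeq2 1.42.0, RLE or library totals in place of TMM, no filter on low counts, a covariate for Y-linked genes, fits on 2 or 6 groups, and leaving out each library. Scripts were tested on simulated data. Each library was 1 replicate, and among libraries of 1 group chi-square per degree of freedom was 20.6 to 265.7, so none was a duplicate. The paper describes MEFs of independent embryos, but no label ties libraries to embryos, so *P* values measure the spread between these libraries, which may in part be technical. Intervals and levels cover no error of counting shared reads.

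The members and gene lists were chosen with earlier results of these data known. In the text, the 10 members, *Rps6kb1* and *Rps6kb2* were named always, per list up to 3 called genes with the greatest rise and up to 3 with the greatest fall, at a mean of at least 1 CPM, and per member the 2 genes nearest by group means.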

Additional observations from a re-analysis of the deposited data

Results flagged for a closer look

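In early WT MEFs of the *S6K1* set, the *Inhba* level of library SG05 (699 CPM) stood apart from the other 3 (263 to 301 CPM), with a gap of 0.913 of the range of the group. In early WT MEFs of the *S6K1/S6K2* set, *Tgfbr1* of library SG47 (19.8 CPM) stood below the other 3 (27.1 to 27.3 CPM), with a gap of 0.974 of the range. Of 40 pairs of member and group examined with Dixon's criterion, 2 were found, and chance gives about 1 in 20. Without SG47 the passage difference of *Tgfbr1* still passed. The passage effect on *Smad7* differed between the 2 sets by 1.15 on the log2 scale, by the interaction test.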

How the results depend on the processing

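The rise of *Tgfbr1* with passage kept its direction and its call under every alternative in both sets, as did the difference of the *Smad7* passage effect between the sets. With passage in the *S6K1* set, 2 members were called, and 4 with DESeq2, with the Y-linked covariate or with all 6 groups in 1 fit, which add *Tgfb1* and *Tgfb2*. In the *S6K1/S6K2* set 2 were called, 4 with DESeq2, which adds *Tgfb3* and *Tgfbr3*, and 1 (*Tgfbr1*) with library totals in place of TMM, with no filter on low counts or with all 6 groups in 1 fit. In KO MEFs 0 were called, 1 (*Tgfb3*) with DESeq2 and 1 (*Tgfb2*) with the Y-linked covariate. Leaving out 1 library gave 1 to 3 called members for passage in either set and 0 to 1 in DKO MEFs. The fits differ in samples, filter or dispersion estimate, and the cause of each changed call was not tested.

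Some log2 differences close to 0 changed sign. With the Y-linked covariate, *Ltbp2* with passage in the *S6K1* set was −0.00981, *Tgfb1* in KO MEFs −0.117 and the genotype difference of *Smad7* between sets 0.0225. *Ltbp1* in DKO MEFs was 0.00327 with DESeq2 and 0.00331 with RLE. Leaving out 1 library gave −0.0827 to 0.306 for *Ltbp1* and −0.287 to 0.334 for *Ltbp2* with passage in the *S6K1* set, and −0.400 to 0.117 for *Tgfb2* with passage in the *S6K1/S6K2* set. In KO MEFs it gave −0.0859 to 0.183 for *Tgfb1*, −0.00431 to 1.10 for *Inhba*, −0.246 to 0.0535 for *Tgfbr2* and −0.0262 to 0.279 for *Smad7*, and in DKO MEFs −0.205 to 0.398 for *Ltbp1*. For the difference of the passage effect between sets it gave −0.416 to 0.0746 for *Tgfb3*, −0.283 to 0.411 for *Inhba* and −0.220 to 0.125 for *Tgfbr2*. For the difference of the genotype effect it gave −0.497 to 0.0831 for *Tgfb2*, −0.508 to 0.606 for *Inhba*, −0.0487 to 0.186 for *Tgfbr1*, −0.515 to 0.0865 for *Ltbp1* and −0.148 to 0.169 for *Smad7*. None of these values was called. Of the remaining results, 822 of those without 1 library and 361 of those under other alternatives kept direction and side of the threshold.

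No paired analysis was possible because the labels give no number that groups share. With 3 or 4 libraries per group, the intervals of the genotype effects on *Tgfb2*, *Tgfb3*, *Inhba*, *Tgfbr3* and *Ltbp2* reach past 1 in size on the log2 scale. Over all genes, edgeR called 6 and DESeq2 266 between KO and late WT, with 38 under the Y-linked covariate, 43 with no filter and 16 with all 6 groups in 1 fit, and 2 to 9 without 1 library (2 without SG22, SG23, SG24, SG25 or SG27). Between DKO and late WT the counts were 686 and 1206, with 97 without SG62, 157 without SG64, 328 without SG58 and 456 without SG59. For the passage difference between sets they were 106 and 222, and for the genotype difference 1 and 65, with 3 when no filter was used and 2, 3 and 5 without SG59, SG19 and SG61. With passage edgeR called 1827 and 1892 genes in the *S6K1* and *S6K1/S6K2* sets and DESeq2 2655 and 2845, and the Y-linked covariate gave 3265 in the *S6K1* set. In the *S6K1/S6K2* set 885, 911, 1103 and 1146 were called without SG46, SG47, SG58 and SG59.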
